A study of Mus musculus with 4 samples.

Results

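*Dapl1*, *Serf1*, *Serf2* and *Usmg5* are nuclear-encoded genes with short coding sequences whose mRNAs were followed through RNA immunoprecipitation (RIP) of mouse retina, a pulldown of the RNA-binding protein YTHDF2 together with its bound transcripts. These 4 genes were picked out of the 52550 genes of the count table by their symbols. *Dapl1*, *Serf1* and *Usmg5* were chosen by their log2 fold changes between input RNA and RIP, which were among the lowest, so that this comparison is a description for them and carries no test, and *Serf2* was added as the paralog of *Serf1*. Retinas of wild type C57BL/6 mice at postnatal day 0 were taken apart with papain. For each of 2 biological replicates, 1 library holds RNA set aside ahead of the antibody step (input) and 1 holds what the YTHDF2 antibody recovered (RIP). No genotype or treatment differed between the groups, and the control IgG pulldown named in the methods was not analysed here.

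YTHDF2 is a cytoplasmic protein that binds mRNA carrying *N*6-methyladenosine (m6A) and brings it to the deadenylation machinery, which shortens the life of the transcript. The 4 mRNAs encode very small proteins. *Dapl1* encodes a relative of death-associated protein (*Dap*) that has been studied in the eye for its role in the pigment epithelium. *Serf1* and *Serf2* encode small, highly charged proteins (small EDRK-rich factors) that are known to modify protein aggregation, and *Usmg5* encodes a small membrane subunit of the mitochondrial ATP synthase, the enzyme that makes ATP from the proton gradient.

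The coding sequences show how short the messages are and how far the *Serf* paralogs have diverged. They are the spliced coding parts of the principal transcripts in GENCODE M21 (GRCm38), stop codon included, from 5′ to 3′, with *Dapl1* shown for its first 240 of 324 nt. Capitals mark GGAC, the core of the commonest m6A consensus motif, searched on the sense strand.
Dapl1: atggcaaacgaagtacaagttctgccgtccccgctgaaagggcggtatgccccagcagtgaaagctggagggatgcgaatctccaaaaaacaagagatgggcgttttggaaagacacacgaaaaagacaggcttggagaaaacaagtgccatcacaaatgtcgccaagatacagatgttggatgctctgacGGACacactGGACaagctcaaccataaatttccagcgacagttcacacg
Serf1: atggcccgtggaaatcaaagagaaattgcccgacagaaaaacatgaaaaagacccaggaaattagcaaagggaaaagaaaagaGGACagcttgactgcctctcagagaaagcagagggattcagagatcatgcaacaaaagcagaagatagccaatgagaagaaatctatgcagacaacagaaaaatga
Serf2: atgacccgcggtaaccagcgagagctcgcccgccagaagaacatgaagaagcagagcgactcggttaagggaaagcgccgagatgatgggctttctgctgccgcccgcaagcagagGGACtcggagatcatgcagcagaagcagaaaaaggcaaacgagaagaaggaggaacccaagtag
Usmg5: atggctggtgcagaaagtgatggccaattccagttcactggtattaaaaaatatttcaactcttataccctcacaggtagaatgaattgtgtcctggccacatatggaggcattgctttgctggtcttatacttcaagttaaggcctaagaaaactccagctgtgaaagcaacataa
The *Dapl1* coding sequence has 107 codons before the stop, that of *Serf1* 62, that of *Serf2* 59 and that of *Usmg5* 58. In a global alignment, 123 of 190 columns (64.7%) were identical between the *Serf1* and *Serf2* coding sequences. The longest run of bases that both principal transcripts share, untranslated parts included, was 11 bases, and the same length was found for *Dapl1* and *Dap*.

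On GRCm38, *Dapl1* (ENSMUSG00000026989) spans positions 59484653 to 59505020 of chromosome 2, on the plus strand. *Serf2* (ENSMUSG00000074884) lies further along the same chromosome, on the plus strand from 121449195 to 121458313. *Serf1* (ENSMUSG00000021643) spans positions 100108012 to 100114571 of chromosome 13 (plus strand), and *Usmg5* (ENSMUSG00000071528) positions 47083464 to 47090647 of chromosome 19 (minus strand). Each principal transcript has 3 or 4 exons. Those of *Usmg5* (362 nt), *Dapl1* (573 nt) and *Serf1* (601 nt) are short as a whole, but that of *Serf2* is 3056 nt long, of which 2636 nt are 3′ untranslated region. Annotated *Serf2* transcripts range from 525 to 3105 nt, and counts per gene do not separate them. The description of a short mRNA therefore holds for the coding sequence of *Serf2* and not for its annotated principal transcript.

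Total counts were between 36236531 and 39499994 in the inputs and between 19530226 and 24903212 in the RIP libraries. Ribosomal, small noncoding and mitochondrially encoded RNA took from 88.4% to 91.4% of them, so that protein-coding genes of the nucleus kept between 2064465 and 3560122 counts per library. Counts were scaled by library size and edgeR's TMM factor to CPM, a share of the scaled library total that is comparable between libraries for the same gene. Changes are thus relative to most of the 13632 tested genes and are not amounts of bound RNA. For a level in whole retina, more cells that express a gene and more of its RNA per cell cannot be told apart. Progenitor and ganglion cell genes were detected as the tissue label implies, with 8 of 8 markers tested in each list. Among 8 pigment epithelium markers, 5 had 0 counts in all 4 libraries, *Rpe65*, *Tyr* and *Tyrp1* among them. Summed over that list the level was 0.929 and 0.320 CPM in the inputs and 0.594 and 0.540 CPM in the RIP libraries. Ganglion cell markers summed to 92.1 and 74.5 CPM in the inputs and 33.2 and 31.5 CPM in the RIP libraries, a sum carried mainly by *Stmn2* and *Sncg*, while *Pou4f1* was at 3.09 and 6.12 CPM against 4.95 and 3.70 CPM. Progenitor markers summed to 915 and 587 CPM against 615 and 601 CPM, photoreceptor precursor markers to 103 and 93.4 CPM against 124 and 138 CPM, and vessel markers to 30.3 and 30.6 CPM against 63.4 and 65.3 CPM. The vessel sum was nearly all *Kdr*, at 29.9 and 30.2 CPM against 63.3 and 65.0 CPM. The other vessel markers did not pass the filter on low counts. *Pecam1* fell from 7 counts per input library to 0 per RIP library, and *Cdh5* never exceeded 7 counts. What part such shifts of marker sums had in the results was not tested. Lens markers had 0 counts in every library apart from 3 counts of *Cryba1* in input replicate 2.

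*Dapl1* mRNA was abundant before the pulldown and almost lost in it. Input replicate 1 held 6946 counts of it and input replicate 2 held 4681, whereas RIP replicate 1 held 96 and RIP replicate 2 held 72. The normalized level was 208 and 136 CPM in the inputs against 3.80 and 2.99 CPM in the RIP libraries, which gives 172 ± 50.8 (SD, n = 2) and 3.40 ± 0.574 CPM. The groups were far apart, although the inputs themselves differed 1.53-fold. In replicate 1 the RIP level was 1.83% of the input level, and in replicate 2 it was 2.19%. The fitted log2 fold change of *Dapl1* was -5.66 (standard error 0.451), a 50.6-fold lower level in the RIP. *Dap*, its relative, had input counts of 255 and 119 and RIP counts of 40 and 50. Its log2 fold change of -1.60 (standard error 0.487) had an adjusted p of 0.0646 in edgeR's quasi-likelihood test and did not pass 0.05. It passed with the replicate block (edgeR adjusted p = 0.0306) and with DESeq2 (adjusted p = 0.0377). With library size alone and with no filter it missed 0.05 (edgeR adjusted p = 0.112 and 0.122). On log2(FPKM + 0.1) and log2(FPKM + 1) it missed as well (limma adjusted p = 0.143 and 0.114).

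*Serf1* had the deepest fitted fall of the 4 genes and also the fewest counts in the RIP. With 1203 and 808 counts in the inputs, it kept 5 and 10 counts in the RIP libraries. Exact 95% Poisson intervals of these counts, which cover counting error only, ran from 1.62 to 11.7 and from 4.80 to 18.4 and thus overlapped. Levels were 36.1 and 23.5 CPM in the inputs and 0.198 and 0.415 CPM in the RIP libraries, or 29.8 ± 8.86 and 0.307 ± 0.154 CPM (SD, n = 2). The RIP level was 0.549% of the input in replicate 1 and 1.77% in replicate 2, so that the depth of the fall was less certain than its presence. Its log2 fold change was -6.59 (standard error 0.533), a 96.3-fold lower level.

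*Serf2* did not share the near loss of its paralog. Its input counts were 1078 and 1035 and its RIP counts 387 and 329, levels of 31.2 ± 1.53 and 14.5 ± 1.17 CPM (SD, n = 2). Both RIP libraries were below both inputs, at 47.4% of the input level in replicate 1 and 45.3% in replicate 2. The log2 fold change of *Serf2* was -1.11 (standard error 0.329). By edgeR's quasi-likelihood test over all 13632 genes its unadjusted p was 0.00898 and its adjusted p 0.0600, so that the fall did not pass the threshold of 0.05. It passed with DESeq2 (adjusted p = 0.0203). By edgeR it missed the threshold with the replicate block, library size alone and no filter (adjusted p = 0.111, 0.254 and 0.104). The same held for TMM without abundant noncoding and mitochondrial genes (edgeR adjusted p = 0.0566). On log2(FPKM + 0.1) and log2(FPKM + 1) it missed as well (limma adjusted p = 0.245 and 0.0939). Without input replicate 1 or 2 the log2 fold change was -1.06 and -1.16. Without RIP replicate 1 or 2 it was -1.09 and -0.94. Within a library, the paralogs were close in the inputs, where *Serf2* had 0.896 and 1.28 counts for each count of *Serf1*, and far apart in the RIP libraries, where it had 77.4 and 32.9. The ratio can be compared across libraries but is not a ratio of molecules, because the counts are not divided by length.

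*Usmg5* fell to about the same share of its input as *Dapl1*. Input counts of 1451 and 1195 stood against RIP counts of 27 and 21, levels of 39.1 ± 6.15 and 0.971 ± 0.139 CPM (SD, n = 2). The replicates gave close shares of 2.46% and 2.51%. The log2 fold change of *Usmg5* was -5.33 (standard error 0.417), a 40.1-fold lower level. Among the 11940 tested protein-coding genes ordered from the lowest log2 fold change, *Serf1* was at rank 25, *Dapl1* at 30, *Usmg5* at 34 and *Serf2* at 1988. Many of the genes ahead of them had few counts, such as *Kcnj6* at rank 24 with 15 and 13 counts in the inputs and 0 in both RIP libraries. Of 992 protein-coding genes with at least 500 counts in each input, *Serf1* ranked 2, *Dapl1* 4 and *Usmg5* 6. *Tmsb10* and *Rpl35* stood directly beside *Dapl1*, at ranks 29 and 31 among all tested protein-coding genes, and *Itgb3bp* followed *Usmg5* at rank 35.

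**Figure D1:**
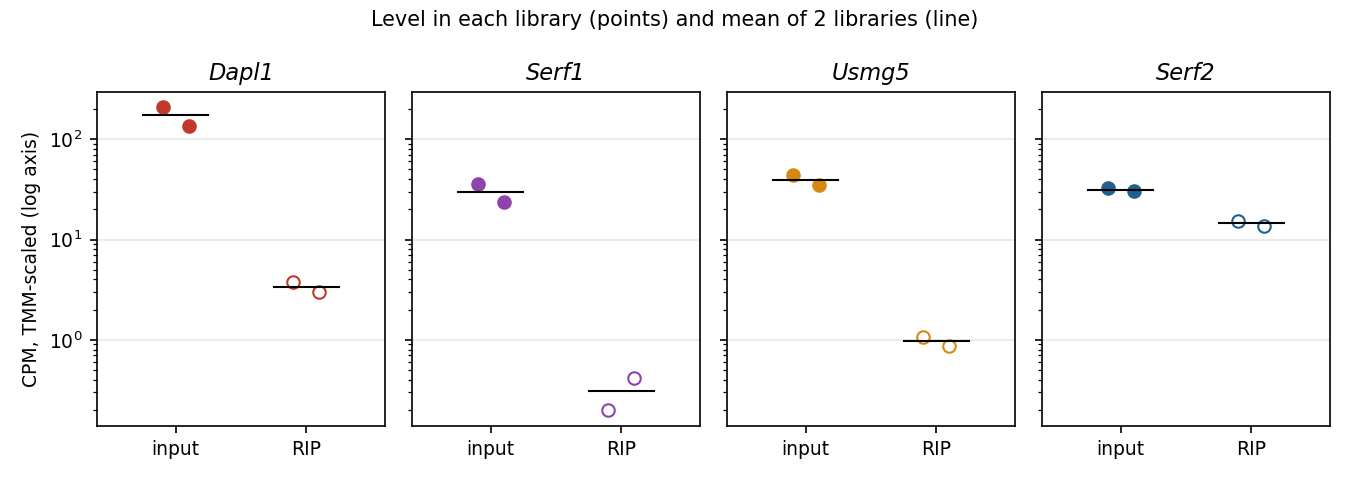
Level of each gene in CPM (TMM-scaled, log axis) in the input libraries (filled points) and RIP libraries (open points), with the mean of 2 libraries as a line. *Dapl1*, *Serf1* and *Usmg5* are at no more than 2.51% of the input level in each replicate, whereas *Serf2* is at 47.4% and 45.3%.

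Levels of different genes were compared with the deposited FPKM values, which are per length. *Dapl1* was among the most abundant mRNAs of the newborn retina, at 248 and 184 FPKM in the inputs, and 18 of the 11940 tested protein-coding genes had a higher input mean. *Usmg5* followed with 104 and 93.8 FPKM, at the 99.6th percentile. *Serf1* had 22.3 and 16.5 FPKM, at the 98.0th percentile, and *Serf2* had 4.75 and 5.01 FPKM, at the 92.4th. In the inputs these FPKM values did not overlap between neighbours in this order, which depends on the length by which each gene was divided. Not divided by length, *Usmg5*, *Serf1* and *Serf2* had input means of 39.1, 29.8 and 31.2 CPM. Despite their falls, 2 of the deeply reduced mRNAs were still above most other genes per length in the RIP libraries. *Dapl1* had 6.69 and 3.86 FPKM there, above 94.0% of tested protein-coding genes. *Usmg5* had 3.67 and 2.29 FPKM, at the 86.3th percentile, and *Serf2* had 3.32 and 2.21 FPKM, at the 85.1th, so that *Usmg5* and *Serf2* overlapped in the RIP libraries. *Serf1*, with 0.166 and 0.269 FPKM, was at the 16.7th percentile and is the only 1 of the 4 that was low in the pulldown by this measure as well as relative to its input.

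**Figure D2:**
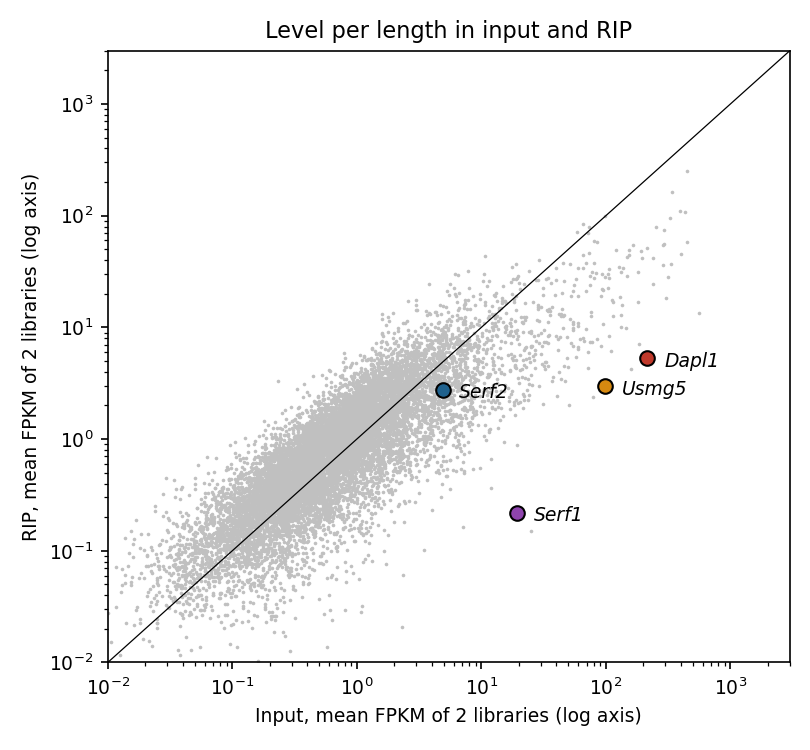
Mean FPKM of 2 input libraries against mean FPKM of 2 RIP libraries (both axes logarithmic) for tested protein-coding genes (grey) and the 4 genes (coloured). The line marks equal values, and *Dapl1*, *Usmg5* and *Serf1* lie far below it, with *Dapl1* still at 5.28 FPKM in the RIP.

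The FPKM values also carry the gene length by which the authors divided, which was recovered from the ratio of counts to FPKM. It was 336 nt for *Usmg5*, 672 nt for *Dapl1*, 1290 nt for *Serf1* and 5444 nt for *Serf2*. These are close to the summed length of all annotated exons of the gene in GENCODE M21 for *Dapl1* (679 nt), *Serf1* (1300 nt) and *Serf2* (5455 nt). For *Usmg5* the M21 exons sum to 2755 nt, because M21 lists a transcript of 2733 nt that the length behind the FPKM does not hold. Every annotated *Serf2* transcript, at 525 to 3105 nt, is shorter than 5444 nt. Divided by the length of any of them, *Serf2* would have a higher FPKM than the one listed. With 2755 nt, *Usmg5* would have a lower one. The order of these genes by FPKM thus depends on the lengths taken. By the length behind the FPKM, *Usmg5*, *Dapl1* and *Serf1* were at or below the 4.35th percentile of tested protein-coding genes, and *Serf2* was at the 59.8th.

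Over all 13632 tested genes, 1333 (9.78%) were depleted and 474 (3.48%) enriched in the RIP at an adjusted p below 0.05 by edgeR's quasi-likelihood test, with a median log2 fold change of -0.052. With the replicate block, 721 were enriched. The falls were unevenly spread over gene length. Of 40 protein-coding genes with a length behind FPKM of up to 500 nt, 30 (75.0%) were depleted, with a median of -2.29. Of 2347 genes over 8000 nt, 31 (1.32%) were depleted, with a median of 0.40. Across the 11940 tested protein-coding genes the Spearman correlation of length with log2 fold change was 0.379, given as a description, since genes share the 4 libraries and lengths. No gene of up to 1000 nt was enriched. The part of length in the falls of *Dapl1*, *Serf1* and *Usmg5* was not tested. Of 517 other genes no longer than *Serf1*, 268 (51.8%) were depleted with a median of -1.95, and 11 of them had a lower log2 fold change than *Usmg5*, 9 than *Dapl1* and 8 than *Serf1*. These numbers describe the 3 genes and follow from their choice by low log2 fold changes. *Serf2* stood differently among 2643 genes within 1.2 times its length behind FPKM, whose median was 0.20 and of which 88 (3.33%) were depleted. That length is close to the sum of all its annotated exons and exceeds each annotated *Serf2* transcript. In that group 229 genes were lower than *Serf2*. The wider group of 7140 genes no longer than *Serf2* had 863 depleted (12.1%) and 193 enriched (2.70%), shares near those of all tested genes.

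**Figure D3:**
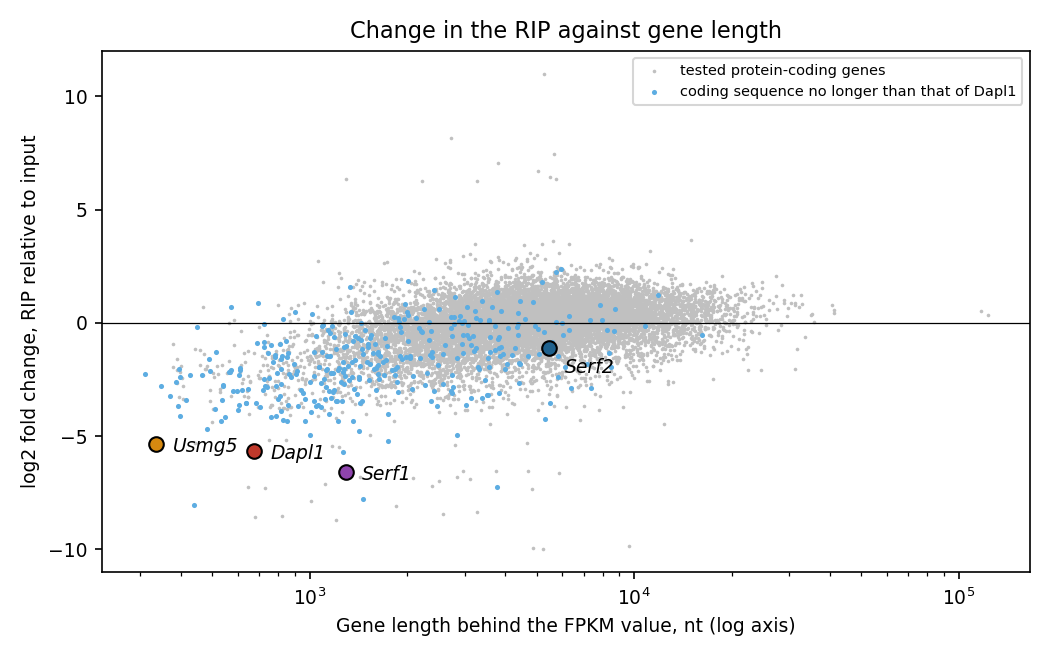
log2 fold change in RIP relative to input against the gene length behind the FPKM value in nt (log axis) for tested protein-coding genes (grey), those with a coding sequence no longer than that of *Dapl1* (blue) and the 4 genes. *Usmg5*, *Dapl1* and *Serf1* lie at the lower left, from 336 to 1290 nt, and *Serf2* lies within the cloud at 5444 nt.

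The same comparison by coding sequence puts *Serf2* with other genes for small proteins. This grouping was chosen after the values were seen. Besides the 4 genes, 915 protein-coding genes of the count table have a coding sequence no longer than that of *Dapl1* (324 nt), of which 469 had no count in any library and 342 passed the filter on low counts. Among those 342, 166 (48.5%) were depleted and 3 (0.877%) enriched, with a median of -1.68. Where the whole gene was also no longer than *Serf1*, 88 of 136 (64.7%) were depleted, with a median of -2.39, and 1 gene was lower than *Serf1* and 2 were lower than *Dapl1*. Where the gene was longer, 78 of 206 (37.9%) were depleted and the median was -1.12. *Serf2* belongs to the latter, and 106 of the 206 had a lower log2 fold change than its -1.11. *Serf2* was thus near the median of the genes that pair a short coding sequence with a length behind FPKM over that of *Serf1*. The low places of *Dapl1*, *Serf1* and *Usmg5* were given by their choice.

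**Figure D4:**
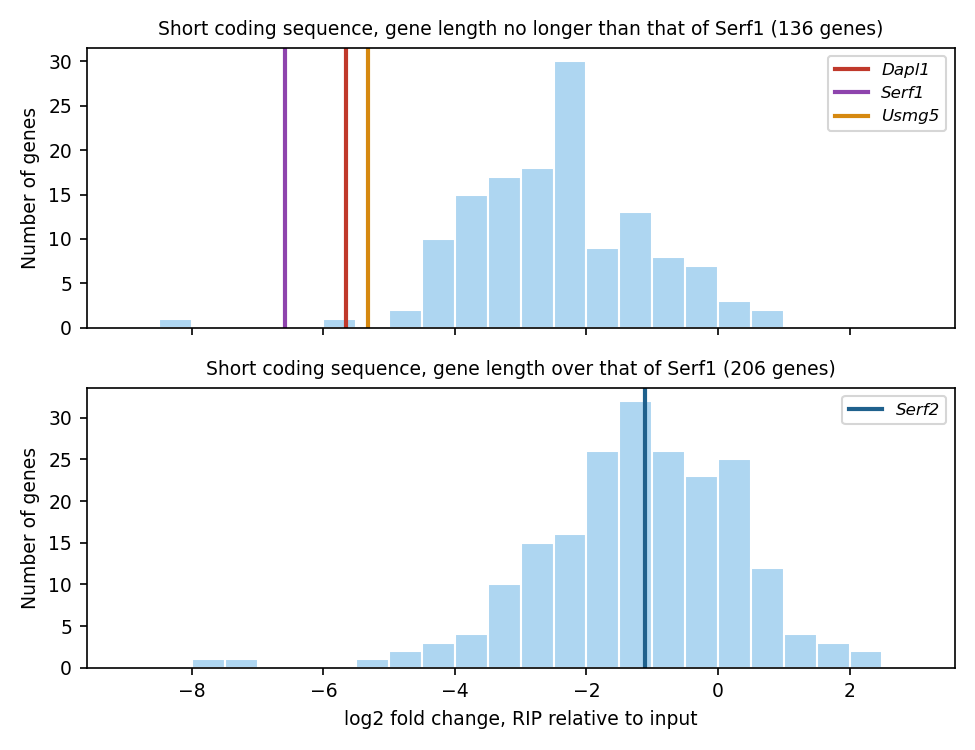
Number of genes by log2 fold change in RIP relative to input among tested protein-coding genes with a coding sequence no longer than that of *Dapl1*, for 136 genes no longer than *Serf1* (top) and 206 longer genes (bottom). Vertical lines mark the 4 genes, with *Serf2* near the middle of its histogram and the others near the lower edge of theirs.

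Within this group, 263 genes had at least 50 counts in each input. The lowest were *Tmsb10*, which encodes an actin-binding thymosin, *1810022K09Rik*, *Dynlrb1*, a light chain of dynein, *Smim4* and *Gm9844*. *Tmsb10* fell from 39798 and 17757 counts to 426 and 391 counts (log2 fold change -5.69, edgeR adjusted p = 0.00102). *1810022K09Rik* fell from 733 and 909 counts to 20 and 12 counts (log2 fold change -5.22, edgeR adjusted p = 0.000876). *Smim4*, with 70 and 51 counts in the inputs, had 0 and 3 counts in the RIP libraries, at the level where a fold cannot be fixed. At the other end, *Coa5*, an assembly factor of cytochrome c oxidase, rose from 470 and 255 counts to 906 and 948 counts (log2 fold change 1.81, edgeR adjusted p = 0.0228). *Cox19*, which serves the same enzyme, rose as well, with a log2 fold change of 1.34 (edgeR adjusted p = 0.0461). The call of *Cox19* was lost with no filter (edgeR adjusted p = 0.0607), on log2(FPKM + 0.1) (limma adjusted p = 0.0668) and without RIP replicate 1 or 2 (edgeR adjusted p = 0.377 and 0.253), and that of *Coa5* without RIP replicate 1 or 2 (edgeR adjusted p = 0.168 and 0.177). *Pkib*, *Smim13* and *Sh3bgrl2* came next, at log2 fold changes of 1.22, 0.97 and 0.77 that did not pass the test. The genes of *Coa5* and *Cox19* have lengths behind FPKM of 5196 and 3784 nt, well over those of *Usmg5*, *Dapl1* and *Serf1*. Among the 4691 genes no longer than *Serf2* with at least 50 counts in each input, the lowest were *Duxbl3*, *Duxbl2*, *Gm1673* and *Fabp3*, each with 0 counts in both RIP libraries, and *Pin4*, with input counts of 634 and 656 and RIP counts of 0 and 6. *Duxbl3* and *Duxbl2* are near copies of each other, and their counts are uncertain for that reason. Among the highest of that group were *4930427A07Rik*, *Cacfd1*, *Fam53c* and *Gid4*, at log2 fold changes of up to 2.78.

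*Usmg5* was set among the other transcripts of the ATP synthase. The list holds 20 genes besides *Usmg5*, all of them tested, and 15 were depleted and 0 enriched at an adjusted p below 0.05, beside 9.78% and 3.48% of all tested genes. Their median log2 fold change was -1.94 against -0.052 over all tested genes, and none was as low as *Usmg5*. Of 9 with a length behind FPKM of up to 2000 nt, 8 were depleted, with a median of -1.97. Of 11 over 2000 nt, 7 were depleted, with a median of -1.58. The part of length in these falls was not tested. The list had 12 depleted genes with library size alone, 12 with no filter and 10 on log2(FPKM + 0.1). The transcripts of the membrane part, the stalk and the inhibitor fell most widely, 11 of 12 being depleted with a median of -2.10. *Atpif1*, which encodes the inhibitor of the enzyme, fell from 1883 and 1461 counts to 101 and 107 counts (log2 fold change -3.55, edgeR adjusted p = 0.00136). *2010107E04Rik*, a small proteolipid of the membrane part, fell by 3.45 on the log2 scale (edgeR adjusted p = 0.00201), and *Atp5l*, subunit g, fell by 2.87 (edgeR adjusted p = 0.00254). The ring subunit gene *Atp5g3* was at -1.27 and did not pass the test (edgeR adjusted p = 0.0558). It passed with the replicate block (edgeR adjusted p = 0.0440), DESeq2 (adjusted p = 0.0226) and log2(FPKM + 1) (limma adjusted p = 0.0271). It missed with library size alone and no filter (edgeR adjusted p = 0.147 and 0.112) and on log2(FPKM + 0.1) (limma adjusted p = 0.147). Of the 5 subunits of the catalytic head, 3 were depleted. *Atp5e*, the small epsilon subunit, fell from 579 and 437 counts to 19 and 26 counts (log2 fold change -4.03, edgeR adjusted p = 0.00136). The alpha and beta subunits, which carry the nucleotide sites, did not pass. *Atp5a1* was at a log2 fold change of -0.19 (standard error 0.379, edgeR adjusted p = 0.779) and *Atp5b* at -0.016 (standard error 0.389, edgeR adjusted p = 0.983), and both were above 0 when library size alone was used for scaling, at 0.16 and 0.32. Without input replicate 2, *Atp5a1* passed at -0.55 (edgeR adjusted p = 0.0309). Among the assembly factors, *Atpaf2* was depleted (log2 fold change -1.58, edgeR adjusted p = 0.0466), whereas *Tmem70* and *Atpaf1* were at 1.07 and 1.54 and did not pass (edgeR adjusted p = 0.202 and 0.0675). *Atpaf1* passed with the replicate block and library size alone (edgeR adjusted p = 0.0449 and 0.0400). It missed with no filter (edgeR adjusted p = 0.0986) and DESeq2 (adjusted p = 0.0926). On log2(FPKM + 0.1) and log2(FPKM + 1) it missed as well (limma adjusted p = 0.0669 and 0.0976). The call of *Atpaf2* was lost with library size alone (edgeR adjusted p = 0.105), no filter (edgeR adjusted p = 0.0889) and log2(FPKM + 0.1) (limma adjusted p = 0.0860). Without RIP replicate 1 the list had 0 depleted genes, and without RIP replicate 2 it had 3, in fits that left 112 and 178 depleted genes among all tested. The *Atp5* genes are known for processed pseudogenes, so that their counts may have been split by the counting.

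**Figure D5:**
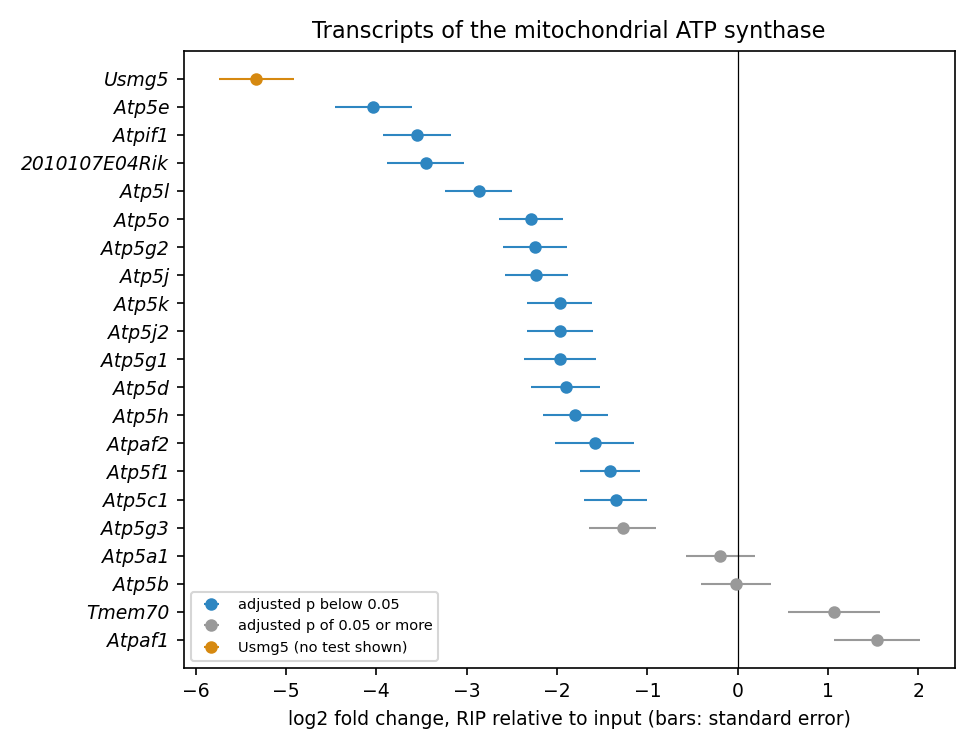
log2 fold change in RIP relative to input with its standard error for 20 genes of the ATP synthase list and *Usmg5*. Blue points passed an adjusted p of 0.05 and grey points did not, *Usmg5* is shown in orange without a test, and only *Tmem70* and *Atpaf1* lie above 0.

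Among 4628 protein-coding genes with a mean input level of at least 5 CPM, those with the most similar profile were sought by the Euclidean distance between log2 CPM over the 4 libraries, each gene centred on its mean. Nearest to *Dapl1* were *Ndufb4* (distance 0.411), *Tmsb10* (0.473) and *Rpl35* (0.688). *Ndufb4* encodes a small subunit of respiratory complex I, and its input counts were 435 and 236 and its RIP counts 6 and 5. It was also nearest to *Usmg5* (distance 0.432), followed by *1810022K09Rik* (0.497) and *Dynlrb1* (0.611). No gene came as close to *Serf1*, whose nearest were *Rpl35* (1.24), *Tmsb10* (1.33) and *Gm2000* (1.35). The RIP part of the *Serf1* profile rests on 5 and 10 counts. For *Dapl1*, *Usmg5* and *Serf1* the profile is mostly the fall by which they were chosen. Their neighbours share such a fall and are no separate result. *Serf2* had near neighbours in plenty, the closest being *Fabp5* (0.0729), *Pym1* (0.0950) and *Sf3a3* (0.109), with log2 fold changes from -1.18 to -1.21.

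Of 10 genes that flank or overlap the 4 loci and were tested, 1 was depleted and 0 were enriched at an adjusted p below 0.05, beside 9.78% and 3.48% of all tested genes. The depleted gene was *Hypk*, which overlaps the end of *Serf2* on the same strand, from 121453290 to 121458672. It fell from 552 and 563 counts to 78 and 71 counts (log2 fold change -2.45, edgeR adjusted p = 0.00367), a deeper fall than that of *Serf2*. How reads in the shared stretch were assigned is not given in the sources used here, so the counts of *Serf2* and *Hypk* are uncertain to that extent. *Pdia3*, the nearest tested gene before *Serf2*, had input counts of 456 and 544 and RIP counts of 200 and 135. Its log2 fold change of -1.12, next to -1.11 for *Serf2*, did not pass (edgeR adjusted p = 0.0717), but passed with DESeq2 (adjusted p = 0.0456). By edgeR it missed with the replicate block, library size alone and no filter (adjusted p = 0.0869, 0.291 and 0.148). On log2(FPKM + 0.1) and log2(FPKM + 1) it missed as well (limma adjusted p = 0.265 and 0.173). Without input replicate 1 or 2 the log2 fold change was -1.23 and -1.02. Without RIP replicate 1 or 2 it was -1.31 and -0.82. *Smn1*, the next tested gene after *Serf1* at a distance of 10280 nt, had input counts of 244 and 178 and RIP counts of 71 and 53 (log2 fold change -1.32, edgeR adjusted p = 0.0654). *Pdcd11* starts 120 nt from *Usmg5* on the other strand and was at 0.057 (edgeR adjusted p = 0.931). *Taf5* overlaps the other end of *Usmg5* on the opposite strand, with 7 to 62 counts per library. Beside *Dapl1*, *Pkp4* and *Tanc1* were at 0.67 and 0.85 and did not pass the test (edgeR adjusted p = 0.218 and 0.134). The antisense gene *BC001981* overlaps the start of *Serf1* and had at most 5 counts in a library.

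Per length of transcript, the marked motif was at least as frequent in the 3 deeply reduced mRNAs as over all tested genes, and rarer in *Serf2*. The coding sequences alone did not show this split. The *Dapl1* coding sequence holds 2 GGAC, those of *Serf1* and *Serf2* hold 1 each and that of *Usmg5* holds 0. Over the principal transcripts, untranslated parts included, there were 3 in *Dapl1*, 3 in *Serf1*, 5 in *Serf2* and 2 in *Usmg5*. Per kilobase of transcript this is 5.24, 4.99, 1.64 and 5.52, beside 4.21 over 11919 tested protein-coding genes and 3.90 over the 342 with a short coding sequence. These rates rest on 2 to 5 motifs per transcript, and that of *Serf2* holds for its principal transcript of 3056 nt alone. Per kilobase of coding sequence it was 6.17 in *Dapl1*, 5.29 in *Serf1*, 5.56 in *Serf2* and 0 in *Usmg5*. Over the 11919 tested protein-coding genes it was 5.08. At least 1 GGAC was present in the coding sequence of 97.7% of those genes and of 74.3% of the 342 genes with a short coding sequence. A match of letters is not a methylated site, and m6A was not measured in these libraries. Transcript GC content was 44.2% in *Usmg5*, 45.9% in *Dapl1*, 49.4% in *Serf1* and 50.1% in *Serf2*, all below the median of tested protein-coding genes.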

How the data were processed

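Retinal RNA of newborn wild-type mice was sequenced from 2 input and 2 RIP libraries. The authors deposited raw counts per gene and FPKM values, which they scaled for gene length and library size. STAR 2.5, HTSeq and GRCm38 are named in the submitters' processing notes, settings and annotation release are not given in the sources used here, and no per-sample column was left unused. GENCODE M21 held 52403 of the 52550 identifiers and gave coordinates, exons and coding sequences.

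Testing used edgeR 4.0.16 under R 4.3.3 with filterByExpr (minimum count 10, minimum total 15), TMM, glmQLFit and glmQLFTest on the counts, Benjamini-Hochberg adjustment over all tested genes and a call at an adjusted p below 0.05. The fit was checked on simulated counts. Standard errors were derived from the fold change and its F statistic. The length behind FPKM is the ratio of counts to FPKM, scaled in each library to a median ratio of 1 to the exon lengths of M21, and it was within 10% of the M21 length for 90.8% of tested genes. Alignments were made with Biopython 1.88. The design text gives each replicate an input and a pulldown. As a check of pairing, the replicate difference in the inputs was correlated with that in the RIP libraries across tested genes (Spearman rho -0.0316), and a replicate block was run as an alternative. The others were DESeq2 1.42.0, library size alone, TMM without abundant noncoding and mitochondrial genes, no filter on low counts, limma 3.58.1 on log2(FPKM + 0.1) and log2(FPKM + 1), and each library left out.

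The 4 genes, the gene lists and the tests were chosen with earlier results of these data known. A class of genes no longer than the longest of the 4 proteins had been planned. Protein sequences were not used here, so it was taken by length behind FPKM, and coding length was added after the data were seen. Named genes are the 4 genes, *Dap*, the ATP synthase list, overlapping and nearest tested genes, the 3 nearest profiles per gene, and the 5 lowest and 5 highest of each class with at least 50 counts in each input, of which 1 is not reported here. *Kcnj6*, *Itgb3bp* and marker genes lie outside this rule.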

Additional observations from a re-analysis of the deposited data

How the results depend on the processing

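The 4 genes stayed below 0 under each alternative run. With library size alone, log2(FPKM + 0.1) and log2(FPKM + 1), the log2 fold change was -5.29, -5.36 and -5.13 for *Dapl1* and -4.98, -5.04 and -4.67 for *Usmg5*, which was at -5.23 with no filter on low counts. *Serf1* was at -4.06 on log2(FPKM + 1), where the added 1 exceeds its RIP level and shrinks the change by construction. With 1 library left out in turn, *Dapl1* ran from -5.94 to -5.32, *Serf1* from -7.10 to -6.04, *Usmg5* from -5.48 to -5.09 and *Serf2* from -1.16 to -0.94. *Serf2* was at -1.10 and past the threshold with DESeq2 (adjusted p = 0.0203), and at -0.76 with library size alone, a scaling that put the median of all tested genes at 0.27 in place of -0.052. The cause of these changes, where none is given, was not tested.

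Over all genes, enriched transcripts numbered 845 with library size alone, 292 with no filter, 721 with the replicate block and 730 with DESeq2, against 474. With 1 library left out, depleted genes ran from 112 to 2767 and enriched genes from 8 to 2539. The ATP synthase list had 1 enriched gene with library size alone and 1 with the replicate block, and from 0 to 17 depleted and from 0 to 1 enriched genes with 1 library left out. Of the genes no longer than *Serf2*, 568 were depleted with no filter and 538 on log2(FPKM + 0.1) in place of 863, and 348 were enriched under library size scaling and 300 on log2(FPKM + 1) in place of 193. With 1 library left out these numbers ran from 39 to 1924 and from 1 to 1066. In each of these ranges over many genes, the lowest value came without RIP replicate 1 and the highest without an input library. Defined by the coding sequence of *Dapl1*, the class had 166 depleted and 3 enriched genes, and by the length of *Serf1* 268 and 1. The replicate block changed no other call among the 4 genes and counts. Beside the calls given in the report, it ended that of *Fabp5* (adjusted p = 0.0907).

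Some genes that did not pass the test changed sign under other settings. Not all of them were near 0, as *Bdp1* and *Taf5* were at log2 fold changes of -0.80 and -0.69. Under library size scaling, log2(FPKM + 0.1) and log2(FPKM + 1), *Atp5a1* was at 0.16, 0.13 and 0.12. In the same order *Atp5b* was at 0.32, 0.29 and 0.27, with 0.089 without the filter and 0.033 with the replicate block, and *Mfap1b* at 0.074, 0.094 and 0.036. With 1 library left out, *Atp5a1* ran from -0.55 to 0.27, *Atp5b* from -0.38 to 0.47, *Bdp1* from -1.48 to 0.52, *Mfap1b* from -0.68 to 0.37, *Pcgf6* from -0.090 to 0.72, *Pdcd11* from -0.051 to 0.17 and *Taf5* from -2.07 to 0.073. The 5 and 10 RIP counts of *Serf1* limit how deep its fall can be said to be.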
